A study of Mus musculus with 7 samples.

Results

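The T cell receptor genes examined here were the 10 rows of the deposited expression table whose name is *Cd3d*, *Cd3e*, *Cd3g*, *Cd247*, *Trac*, *Trbc1*, *Trbc2*, *Cd8a*, *Cd8b1* or *Cd4*, of 38026 rows in all. They were chosen by name and not by a measured value. The alpha and beta chains of the receptor, whose constant parts are encoded by *Trac* and by *Trbc1* or *Trbc2*, recognize a peptide held by an MHC molecule but have almost no cytoplasmic tail. The CD3 delta, epsilon and gamma chains (*Cd3d*, *Cd3e*, *Cd3g*) and the zeta chain (*Cd247*) carry the tyrosine motifs that the kinase LCK phosphorylates and to which ZAP-70 binds, and an alpha-beta receptor that lacks one of them is poorly brought to the cell surface. The co-receptors hold LCK near the receptor. CD8, usually a dimer of an alpha (*Cd8a*) and a beta (*Cd8b1*) chain, marks cytotoxic T cells that see MHC class I, and CD4 marks helper and regulatory T cells that see MHC class II.

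The values came from RNA-seq of whole subcutaneous (s/c) pancreatic ductal adenocarcinoma (PDA) tumors grown in C57BL/6 mice from the 1242 line, a KPC cell line (from a mouse pancreatic tumor driven by a *Pdx1*-Cre transgene), and taken 2 weeks after inoculation without treatment. Control tumors were formed with cells carrying Cas9 and a scrambled guide (sgScramble, 4 libraries, replicates 1 to 4), and *Krt19*-edited tumors with cells carrying Cas9 and a guide to *Krt19* (sgKRT19, 3 libraries, replicates 5, 6 and 8). The control cells thus carry the lentivirus and Cas9 as well. The labels do not say which of the *Krt19* guides was used, whether the cells were a polyclonal line or 1 clone, or whether each library is a separate mouse. The paper describes the sequenced samples as individual tumors and the injection site as the right flank. If several libraries came from 1 source, the p-values measure a spread that is partly technical. Each library held between 40781199 and 44972100 reads over genes, and 3 reads corresponded to a normalized count of 2.74 to 3.47. *Krt19*, the edited gene, was at 17841 to 27618 normalized reads in sgScramble and 1606 to 2470.0 in sgKRT19 tumors (log2 fold change −3.52, limma adjusted p = 1.74e-05). One library stood apart. The summed level of 8 skeletal muscle genes was 2128 in sgScramble 3 and at most 87.2 in the other sgScramble libraries, while it was 18443 to 26608 in sgKRT19 tumors, so muscle transcripts also moved with the groups. Their part in the results below was not tested. Leaving out sgScramble 3 changed none of the calls of the 10 genes, and genes outside the 10 and the signaling list were not compared one by one without it.

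*Cd3d*, *Cd3g* and *Cd3e* lie together within 40.056 kb of chromosome 9 (GRCm38). The starts of *Cd3g* (minus strand, 44969572 to 44980431) and *Cd3d* (plus strand, 44981786 to 44987339) are 1355 bases apart and point away from each other, and *Cd3e* (minus strand, 44998740 to 45009627) follows. *Cd247* is on chromosome 1 (plus strand, 165788681 to 165877277). The 250 bases before the RefSeq start of these 4 genes are shown because the first 3 rose in sgKRT19 tumors and the fourth was not called. They are RefSeq sequence of build GRCm38.p6, written 5′ to 3′ along the strand of the gene, at chr9:44981536-44981785 (*Cd3d*), chr9:45009612-45009861 (*Cd3e*), chr9:44980432-44980681 (*Cd3g*) and chr1:165788431-165788680 (*Cd247*). Capitals mark matches on either strand to an ETS core (ACTTCC), an E-box (CAGGTG), a TCF/LEF core (CTTTGA) or a RUNX core (TGTGGT), and no 2 matches overlap. The RefSeq start of *Cd3e* lies inside the gene as given above, so the last bases of its window, with part of the marked match, are within that gene.
Cd3d: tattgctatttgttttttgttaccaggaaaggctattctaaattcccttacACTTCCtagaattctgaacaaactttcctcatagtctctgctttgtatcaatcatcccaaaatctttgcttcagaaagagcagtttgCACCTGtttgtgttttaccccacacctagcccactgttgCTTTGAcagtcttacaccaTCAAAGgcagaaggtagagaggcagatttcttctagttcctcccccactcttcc
Cd3e: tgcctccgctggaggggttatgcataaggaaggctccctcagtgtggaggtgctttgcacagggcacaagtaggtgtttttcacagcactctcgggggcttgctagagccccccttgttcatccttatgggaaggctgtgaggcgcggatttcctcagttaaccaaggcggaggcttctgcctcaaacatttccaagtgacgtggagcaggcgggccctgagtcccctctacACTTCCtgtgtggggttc
Cd3g: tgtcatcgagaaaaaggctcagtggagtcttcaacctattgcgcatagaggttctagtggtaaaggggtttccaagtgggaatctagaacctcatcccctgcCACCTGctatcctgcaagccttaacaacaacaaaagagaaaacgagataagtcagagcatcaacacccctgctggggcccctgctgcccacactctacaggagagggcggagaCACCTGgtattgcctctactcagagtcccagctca
Cd247: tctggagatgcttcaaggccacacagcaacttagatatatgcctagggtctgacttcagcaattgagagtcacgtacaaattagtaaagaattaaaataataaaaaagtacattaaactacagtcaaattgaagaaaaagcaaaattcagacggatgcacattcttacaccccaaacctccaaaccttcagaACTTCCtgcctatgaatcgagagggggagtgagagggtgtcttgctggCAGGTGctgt
The ETS core matched in the windows of *Cd3d*, *Cd3e* and *Cd247*, and in 19.7% of all 32851 windows of this length. The E-box matched in those of *Cd3d*, *Cd3g* and *Cd247*, against 17.2% of all windows. The TCF/LEF core matched 2 times before *Cd3d* (13.8% of all windows had at least 1 match), and the RUNX core in none of the 4 (14.1% of all windows). The window of *Cd8a* (chr6:71373177-71373426), the fifth that could be read, held none of the 4 letter runs. These are matches of letters in a short window, and they do not separate the 3 CD3 genes from *Cd247*. Windows for *Cd4*, *Cd8b1*, *Trac*, *Trbc1* and *Trbc2* were not analysed here.

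All 10 genes passed the filter on low values, a normalized count of at least 10 in at least 3 libraries. By limma on log2(normalized count + 1), 8 of the 10 rose in sgKRT19 tumors, none fell, and *Cd247* and *Cd4* did not pass an adjusted p of 0.05 (Benjamini-Hochberg over the 21322 genes tested). The same 8 genes had their lowest sgKRT19 value above their highest sgScramble value. Over the whole table, 34.0% of the genes tested were called (17.9% higher and 16.0% lower), and 21.7% had every sgKRT19 library above every sgScramble library. The median log2 fold change was 2.48 over the 10 genes and 0.0072 over all genes tested. In a bulk tumor, more T cells and more RNA of these genes per T cell cannot be told apart, and this holds for each result below.

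**Figure D1:**
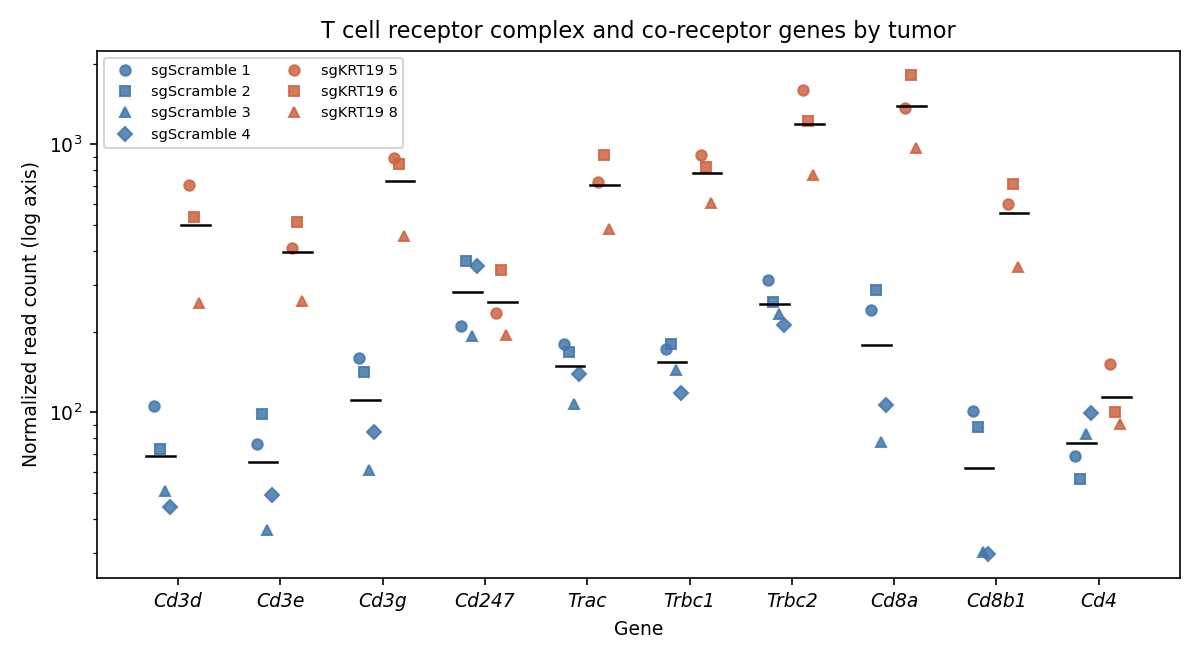
Normalized read count (log axis) of each of the 10 genes in each tumor. Blue symbols are the 4 sgScramble libraries, orange symbols the 3 sgKRT19 libraries, and black bars the mean of each group. The groups are apart for 8 genes and overlap for *Cd247* and *Cd4*.

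The 3 CD3 chains were examined first, since the alpha-beta receptor is carried to the surface with them. *Cd3d* was at 106, 73.1, 51.1 and 44.5 in sgScramble 1 to 4 and at 704, 536 and 255 in sgKRT19 5, 6 and 8. *Cd3e* was at 76.2, 98.8, 36.5 and 49.2 in the sgScramble and 409, 515 and 261 in the sgKRT19 libraries, in the same order. *Cd3g* was at 159.8, 141, 61.2 and 84.4 against 887, 846 and 455. The lowest sgKRT19 library, replicate 8 for each of the 3, still exceeded the highest sgScramble library by a ratio of 2.41 for *Cd3d*, 2.65 for *Cd3e* and 2.85 for *Cd3g*. *Cd3d* rose by 2.80 on the log2 scale (SE 0.372, limma adjusted p = 0.000514), its group means being 68.7 ± 27.7 (SD, n = 4) and 498 ± 227 (SD, n = 3). For *Cd3e* the means were 65.2 ± 27.9 and 395 ± 127 and the log2 difference 2.63 (SE 0.344, limma adjusted p = 0.00047). *Cd3g* went from 112 ± 46.5 to 729 ± 239, with log2 fold change 2.74 ± 0.346 (SE, limma adjusted p = 0.00039). Within each tumor the 3 genes kept similar proportions. *Cd3d* was 0.74 to 1.40 times *Cd3e* in sgScramble and 0.976 to 1.72 times in sgKRT19 tumors, and *Cd3g* was 1.43 to 2.10 times *Cd3e* against 1.64 to 2.17 times. The difference between groups in log2 *Cd3d* minus log2 *Cd3e* was 0.17 (exact permutation p = 0.743, two-sided), and that in *Cd3g* minus *Cd3e* was 0.11 (exact permutation p = 0.457). Both intervals were wide. By each gene's own residual spread, the 95% interval of the difference ran from −0.71 to 1.06 for *Cd3d* and from −0.32 to 0.54 for *Cd3g*. *Cd3e* shares 135 of its 4080 exon bases with *Gm48719*, an antisense transcript that also rose, from 12.1 ± 4.74 to 71.8 ± 24.7 (log2 fold change 2.51, limma adjusted p = 0.00128). Without knowing whether the counting used the strand, the reads over those bases cannot be given to either gene.

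The chains that recognize the antigen came next. *Trac*, the constant gene of the alpha chain (chromosome 14, 54220521 to 54224206), was at 180.2, 168, 108 and 139 in sgScramble 1 to 4 and at 723, 911 and 483 in sgKRT19 5, 6 and 8. *Trbc1*, the first of the beta constant genes (chromosome 6, 41538218 to 41539881), was at 172, 181, 144 and 119 against 911, 826 and 604. *Trbc2*, which lies 8512 bases further along the same strand, was at 312, 259, 233 and 212 against 1589.5, 1226 and 771. None of these groups overlapped, and sgKRT19 8 was again the lowest of its group. The spread within sgScramble was narrower than for the CD3 genes, with a highest-to-lowest ratio of 1.67 for *Trac*, 1.52 for *Trbc1* and 1.47 for *Trbc2* against 2.38 to 2.70 for the CD3 genes. *Trbc1* rose by 2.33 on the log2 scale (SE 0.195, limma adjusted p = 5.02e-05), its group means being 154 ± 28.1 (SD, n = 4) and 780.3 ± 159 (SD, n = 3). *Trac* went from 149 ± 32.3 to 706 ± 215, with 2.22 (SE 0.241, limma adjusted p = 0.000185), and *Trbc2* from 254 ± 43.1 to 1196 ± 410.2, with 2.18 (SE 0.231, limma adjusted p = 0.000161). *Trbc1* and *Trbc2* are near-identical copies that can share reads, so their separate levels are uncertain. *Trbc1* was 0.551 to 0.698 times *Trbc2* in sgScramble and 0.573 to 0.783 times in sgKRT19 tumors, and the log2 difference between groups was 0.15 (exact permutation p = 0.343). *Trac* was 1.70 to 2.95 times *Cd3e* in sgScramble and 1.77 to 1.85 times in sgKRT19 tumors. That log2 ratio was lower by 0.41 in sgKRT19 tumors (exact permutation p = 0.229), within the sgScramble range.

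The CD8 co-receptor genes had the largest fold changes of the 10. *Cd8a* (chromosome 6, 71373427 to 71379173) was at 242, 286, 77.6 and 107 in sgScramble 1 to 4 and at 1371, 1820.3 and 967 in sgKRT19 5, 6 and 8. *Cd8b1*, whose start lies 50639 bases before that of *Cd8a*, was at 101, 87.9, 30.1 and 29.7 against 598, 713 and 349. The sgScramble libraries formed a higher pair (1 and 2) and a lower pair (3 and 4) for both genes, and even the higher pair was below every sgKRT19 library. *Cd8b1* rose by 3.29 on the log2 scale (SE 0.454, limma adjusted p = 0.000622), its group means being 62.2 ± 37.7 (SD, n = 4) and 553 ± 186 (SD, n = 3), and *Cd8a* from 178 ± 101 to 1386 ± 427, with 3.11 (SE 0.420, limma adjusted p = 0.000557). The alpha chain can also pair with itself, as on some dendritic cells, which lack the beta chain. *Cd8a* was 2.39, 3.25, 2.58 and 3.59 times *Cd8b1* in sgScramble 1 to 4 and 2.29, 2.55 and 2.77 times in sgKRT19 5, 6 and 8. These overlapped, and the log2 ratio differed by −0.18 (exact permutation p = 0.4). *Cd8a* against *Cd3e* did not overlap between the groups. Its ratio was 3.17, 2.89, 2.12 and 2.17 in the sgScramble and 3.35, 3.53 and 3.70 in the sgKRT19 libraries, a log2 difference of 0.48 (exact permutation p = 0.0571, the smallest two-sided p that 4 against 3 tumors can give). Tested against the change of *Cd3e* over all genes, *Cd8a* was called with each gene's own spread (95% interval 0.02 to 0.94, adjusted p = 0.0459) but not by limma's moderated fit (adjusted p = 0.363), and *Cd8b1* was called by neither (difference 0.66, adjusted p = 0.0634 and 0.232). A larger change of the CD8 genes than of *Cd3e* was therefore not established.

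*Cd4* (chromosome 6, 124864692 to 124888221) did not share this pattern. It was at 68.7, 56.3, 83.1 and 99.2 in sgScramble 1 to 4 and at 151, 100.02 and 90.3 in sgKRT19 5, 6 and 8. sgKRT19 8 lay below sgScramble 4, so the groups overlapped. The means were 76.9 ± 18.5 (SD, n = 4) and 114 ± 32.9 (SD, n = 3), with a log2 fold change of 0.56 (95% interval −0.01 to 1.13, adjusted p = 0.116 by limma). The upper end of the interval lies below the lowest fold change of the 8 called genes, 2.18. Relative to *Cd3e*, *Cd4* was 0.902, 0.57, 2.27 and 2.02 times as high in sgScramble 1 to 4 and 0.37, 0.194 and 0.345 times in sgKRT19 5, 6 and 8, without overlap. The change of *Cd4* was lower than that of *Cd3e* by a log2 difference of −2.07 (95% interval −3.63 to −0.51 and adjusted p = 0.0213 with the gene's own spread, adjusted p = 0.000305 by limma's moderated fit, exact permutation p = 0.0571). This call is not particular to *Cd4*, since 96.4% of 21321 genes were called lower than *Cd3e* by the moderated fit and 0.539% higher. The ratio of *Cd8a* to *Cd4* was 3.51, 5.07, 0.934 and 1.07 in sgScramble 1 to 4, where it fell into the same 2 pairs of tumors, and 9.05, 18.2 and 10.7 in the sgKRT19 tumors. On the log2 scale it was 1.03 ± 1.21 (SD, n = 4) and 3.58 ± 0.524 (SD, n = 3), a difference of 2.55 (exact permutation p = 0.0571). Over the 9 pairs of genes compared, the 4 pairs without overlap each had an exact permutation p of 0.0571 and an adjusted p of 0.129. Since 0.0571 is the smallest p of this test, no pair could pass 0.05 by it.

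**Figure D2:**
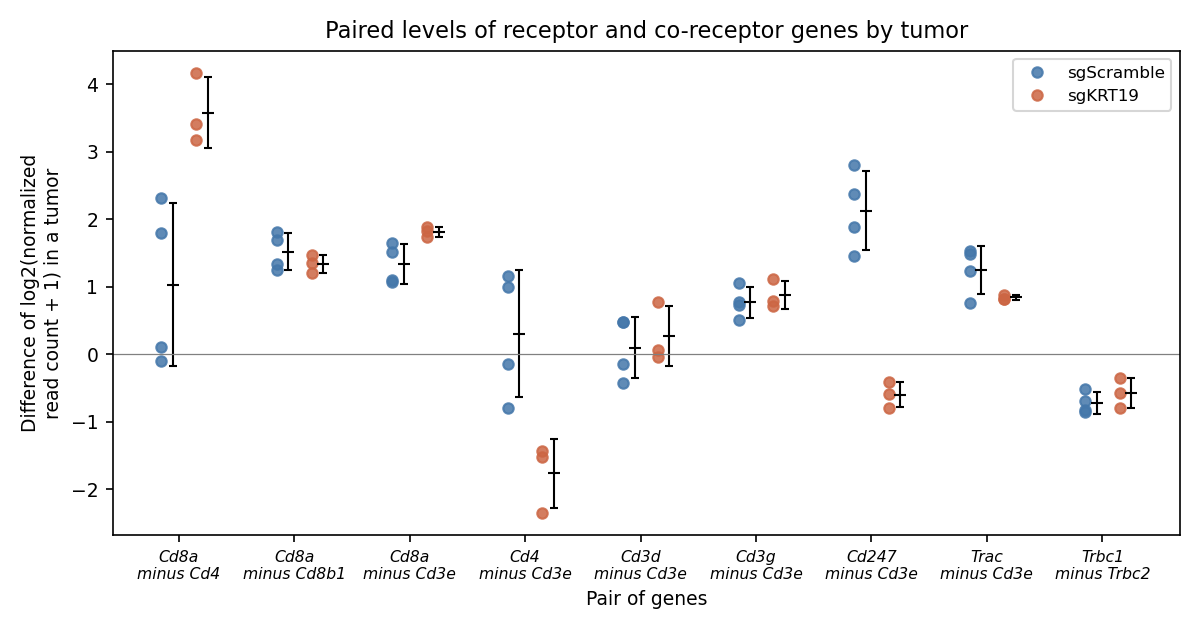
Difference of log2(normalized read count + 1) between 2 genes in the same tumor, for the 9 pairs compared. Points are tumors (blue sgScramble, orange sgKRT19), and black marks are the mean ± SD of each group. The groups are apart for *Cd8a* minus *Cd4*, *Cd8a* minus *Cd3e*, *Cd4* minus *Cd3e* and *Cd247* minus *Cd3e*, and overlap for the other 5 pairs.

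*Cd247*, the zeta chain, was the other gene that was not called. It was at 211, 368, 193 and 351 in sgScramble 1 to 4 and at 236, 341 and 195 in sgKRT19 5, 6 and 8, with means of 280.4 ± 91.4 (SD, n = 4) and 257 ± 75.2 (SD, n = 3). The groups overlapped fully, and the log2 fold change was −0.10 (95% interval −0.71 to 0.50, adjusted p = 0.792 by limma). It was 2.77 to 7.13 times *Cd3e* in sgScramble and 0.576 to 0.747 times in sgKRT19 tumors, a log2 difference of −2.73 (95% interval −3.65 to −1.81 and adjusted p = 0.00485 with the gene's own spread, exact permutation p = 0.0571). This difference is not particular to *Cd247*. The median change relative to *Cd3e* over all genes tested was −2.62, and 96.4% of them were called lower than *Cd3e* by the moderated fit. Whether the row measures the zeta chain alone depends on how the counting treated strand. In the annotation 3007 of its 5329 exon bases (56.4%) are shared with *Pou2f1*, a broadly expressed transcription factor gene on the opposite strand. *Pou2f1* was at 783, 1213, 728 and 1229 in sgScramble 1 to 4 and at 540, 793 and 556 in sgKRT19 5, 6 and 8 (log2 fold change −0.63, limma adjusted p = 0.0487). *Cd247* was high in the same sgScramble tumors as *Pou2f1*, 2 and 4, and in the same sgKRT19 tumor, 6. The ratio of *Cd247* to *Pou2f1* was 0.269, 0.303, 0.265 and 0.285 in the sgScramble and 0.437, 0.430 and 0.352 in the sgKRT19 libraries, without overlap (exact permutation p = 0.0571). A calculation added after seeing the data took reads as counted without regard to strand, and those over shared bases as counted for both genes. It also took the *Pou2f1* row as reads of *Pou2f1* alone, spread evenly over its 16597 exon bases. The shared bases would then give 98 to 223 of the reads in the *Cd247* row. What was left after subtracting them was 69.0, 148, 60.8 and 128 in sgScramble 1 to 4 and 138, 197 and 94.7 in sgKRT19 5, 6 and 8, a log2 difference of 0.53 with overlapping groups (exact permutation p = 0.343). How the counting treated strand was not given in the sources used here, so the share of *Pou2f1* reads in this row was not settled, and a change of *Cd247* itself cannot be read from this row alone.

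**Figure D3:**
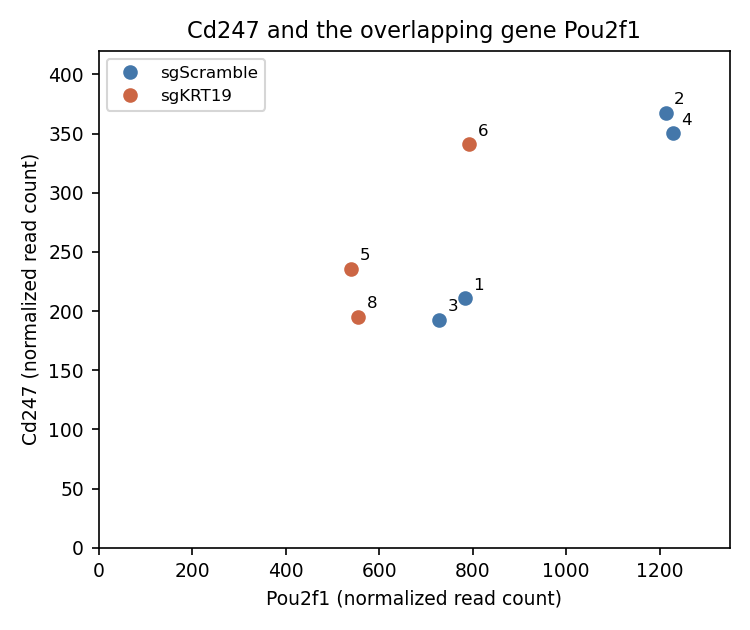
Normalized read count of *Cd247* against that of *Pou2f1* in each tumor, with replicate numbers beside the points. The 3 sgKRT19 tumors (orange) have a higher ratio of *Cd247* to *Pou2f1* than the 4 sgScramble tumors (blue), 0.352 to 0.437 against 0.265 to 0.303.

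How the genes moved together between tumors of the same group was described by the deviation of each log2 value from its group mean. In sgKRT19, replicate 8 was the lowest library for 10 of 10 genes. The share of all genes that were lowest there is not given here, so this order is not shown to be particular to the 10. In sgScramble, replicates 1 and 2 were above their group mean and 3 and 4 below it for each of the 8 called genes. The mean deviation of *Cd3d*, *Cd3e* and *Cd3g* was 0.55, 0.43, −0.60 and −0.38 in sgScramble 1 to 4 and 0.36, 0.31 and −0.67 in sgKRT19 5, 6 and 8. *Cd4* went the other way among the sgScramble tumors, with −0.13, −0.41, 0.14 and 0.40. *Cd247* was at −0.35, 0.45, −0.48 and 0.38 there, high and low in the same libraries as *Pou2f1*. Over the 7 libraries, which share depth and scaling within each value, Pearson's r of these deviations with the CD3 mean was 0.948 for *Cd8b1*, 0.922 for *Trac*, 0.914 for *Cd8a*, 0.883 for *Trbc1* and 0.841 for *Trbc2*, against 0.379 for *Cd247* and −0.166 for *Cd4*. These values are a description over 7 points from 2 groups. Of 12248 other genes with a mean of at least 100, 144 (1.18%) had an r above 0.9. The 5 with the highest r were *Pgk1-rs7* (0.994), *Aldoa* (0.988), *Nkg7* (0.987), *Map2k1* (0.984) and *Pgam1* (0.984). *Nkg7* encodes a granule protein of killer lymphocytes, and it was at 199, 179, 93.2 and 121 in sgScramble 1 to 4 and at 1219.6, 1195 and 739 in the sgKRT19 libraries (log2 fold change 2.85, limma adjusted p = 9.99e-05). *Aldoa* and *Pgam1* encode enzymes of glycolysis, *Pgk1-rs7* is a copy related to another such gene, and *Map2k1* encodes the kinase MEK1. None of these 4 was called between the groups (limma adjusted p of 0.589, 0.335, 0.357 and 0.184). The 5 genes were picked by this r, so their agreement with the CD3 mean carries no added support. Their part in the spread of the CD3 genes was not tested.

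**Figure D4:**
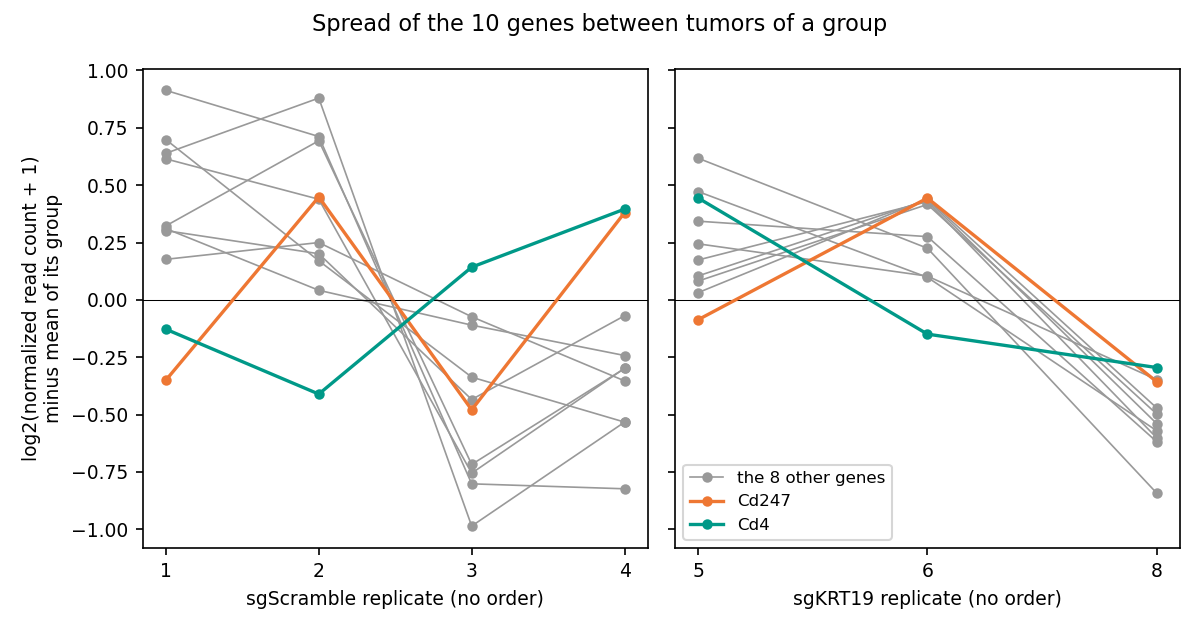
Deviation of log2(normalized read count + 1) from the mean of its group, for each of the 10 genes in each tumor. Lines join the values of 1 gene and carry no order of tumors. The 8 called genes (gray) lie above 0 in sgScramble 1 and 2 and below 0 in 3 and 4, *Cd4* (green) does the reverse, and all 10 are lowest in sgKRT19 8.

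Levels of different genes were compared per kilobase of the longest coding transcript. In sgScramble tumors the order was *Trbc2* (367 ± 62.3 normalized reads per kb, SD, n = 4), *Trbc1* (209 ± 38.2), *Trac* (159 ± 34.5), *Cd3g* (109 ± 45.4), *Cd247* (94.8 ± 30.9), *Cd8a* (56.9 ± 32.4), *Cd3e* (44.6 ± 19.1), *Cd3d* (42.5 ± 17.1), *Cd8b1* (42.0 ± 25.4) and *Cd4* (24.7 ± 5.96). Apart from *Trbc2* and *Trbc1*, neighbors in this order overlapped between tumors. In sgKRT19 tumors the first 4 genes kept their order, at 1728 ± 593 (SD, n = 3), 1059 ± 215, 755 ± 229 and 713 ± 233 per kb, and *Cd8a* (443 ± 136), *Cd8b1* (373 ± 126), *Cd3d* (308 ± 140.2) and *Cd3e* (270.4 ± 87.1) followed with overlapping ranges. *Cd247* (87.0 ± 25.4) and *Cd4* (36.7 ± 10.6) came last and overlapped neither each other nor the rest. By this length *Cd4* was the lowest in both groups. The order depends on the length used. Per kb of all exon bases *Cd3g* was at 34.2 in sgScramble and 223 in sgKRT19 tumors, and *Cd3e*, at 16.0 and 96.9, was below *Cd4* (19.1) in sgScramble and above it (28.3) in sgKRT19 tumors.

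The variable segments of the receptor, of which each T cell clone joins 1 per chain to a constant gene, gave few reads. The 23 rows of beta segments (*Trbv*) summed to 69, 39, 27 and 40 reads in sgScramble 1 to 4 and to 250, 257 and 142 in sgKRT19 5, 6 and 8. As normalized counts this was 41.1 ± 16.5 (SD, n = 4) and 232 ± 73.3 (SD, n = 3), without overlap (exact permutation p = 0.0571, adjusted p = 0.229 over 12 segment measures), and relative to the reads of *Trbc1* and *Trbc2* it was 6.54% to 13.2% against 10.8% to 12.5%. Segments with at least 1 read numbered 17, 15, 15 and 14 in the sgScramble and 18, 19 and 16 in the sgKRT19 libraries. After thinning every library to 27 reads the expected numbers were 12.5, 12.8, 15 and 11.8 against 11.2, 12.7 and 10.4, with overlap and a mean difference of −1.61 (exact permutation p = 0.171), so a change in the variety of segments was not detectable at this depth. The segments with the highest mean share were *Trbv17* (14.3%), *Trbv3* (11.6%) and *Trbv15* (8.48%) in sgScramble and *Trbv3* (21.8%), *Trbv17* (8.90%) and *Trbv12-2* (8.42%) in sgKRT19 tumors. *Trbv3* gave 12, 5, 1 and 5 reads in sgScramble 1 to 4 and 56, 36 and 41 in sgKRT19 5, 6 and 8, where it was the most frequent segment of each library. Its share ran from 3.70% to 17.4% and from 14% to 28.9%, so the shares overlapped. As a gene it rose by 3.17 on the log2 scale (limma adjusted p = 0.0022), and *Trbv12-2*, *Trbv13-2* and *Trbv17* were the other segments that passed the filter, all called higher, with 2.61, 2.61 and 1.66 (limma adjusted p = 0.0036, 0.00381 and 0.0302). The 4 needed the sgKRT19 libraries to pass the filter, so their direction carries no added support. The alpha segments (*Trav*, 108 rows, many of them near-identical copies that share reads) summed to 39, 70, 20 and 46 reads against 171, 261 and 94, and after thinning to 20 reads 16.4 ± 1.61 and 16.3 ± 0.367 segments were expected (exact permutation p = 0.914). The joining segments of the beta locus summed to 13.1 ± 2.52 and 49.7 ± 9.12 normalized reads for the *Trbj1* cluster, which precedes *Trbc1*, and to 13.9 ± 4.27 and 61.0 ± 25.6 for the *Trbj2* cluster, which precedes *Trbc2*.

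Gamma-delta T cells join other receptor chains to CD3 chains. Of their 5 constant genes 4 were tested, 3 of which (*Trdc*, *Tcrg-C1* and *Tcrg-C4*) needed the sgKRT19 libraries to pass the filter, so the direction of *Trdc* and *Tcrg-C1* carries no added support. *Trdc*, the delta constant gene, was at 7.43, 2.96, 4.57 and 6.49 in sgScramble 1 to 4 and at 19.7, 12.0 and 15.8 in sgKRT19 5, 6 and 8 (log2 fold change 1.43, limma adjusted p = 0.0183). *Tcrg-C1* and *Tcrg-C2*, constant genes of the gamma locus, had 1.66 and 2.66 (limma adjusted p = 0.00998 and 0.00122), and *Tcrg-C4* had 0.26 (limma adjusted p = 0.633). *Tcrg-C3* was at 0 to 1.86 against 4.62 to 11 and was not tested. Their summed level, 25.6 to 52.9 in sgScramble and 133 to 191 in sgKRT19 tumors, was below that of *Trac* alone in every library. *Trdv4*, *Tcrg-V5* and *Cd207*, markers of skin gamma-delta T cells and Langerhans cells, were at or under 3 reads in all 7 libraries. *Rag1*, *Ptcra* and *Dntt*, which act in developing thymocytes, were each under 10 normalized reads in every library. Among signaling adaptors of other immune receptors, *Fcer1g* and *Tyrobp*, of myeloid and NK cells, rose by 0.97 and 0.72 on the log2 scale (limma adjusted p = 0.00131 and 0.00635), *Hcst*, which encodes DAP10, rose by 1.84 (limma adjusted p = 0.000587), and *Cd79b*, of B cells, was not called (0.06).

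The signal from the receptor passes through the genes of a second list of 32, of which 31 passed the filter. Of these, 23 rose in sgKRT19 tumors, 1 fell (2 when sgScramble 1 or sgScramble 3 was left out) and 7 were not called, against 17.9% higher and 16.0% lower over all genes tested, and their median log2 fold change was 1.19. *Lck*, the kinase that phosphorylates the CD3 chains, was at 265, 206, 152 and 166 in sgScramble 1 to 4 and at 807, 850.1 and 539 in sgKRT19 5, 6 and 8 (log2 fold change 1.89, SE 0.224, limma adjusted p = 0.000278). *Zap70*, the kinase that binds them, was at 58.5, 62.2, 44.8 and 74.2 against 224, 287 and 197 (1.97, SE 0.220, limma adjusted p = 0.00021). *Lat*, the adaptor that ZAP-70 phosphorylates, was at 95.7, 108, 88.6 and 74.2 against 490.2, 400.1 and 295 (2.08, SE 0.208, limma adjusted p = 0.000119). For these 3 genes the groups did not overlap. *Themis* (2.52), which acts in T cell selection, was the 1 gene of the list that needed the sgKRT19 libraries to pass the filter, with 14.9, 22.7, 8.22 and 9.27 in sgScramble 1 to 4 and 76.3, 121 and 50.4 in sgKRT19 5, 6 and 8. The receptors and regulators with the next fold changes were *Cd6* (2.22), *Ubash3a* (2.11), *Cd5* (2.09) and *Prkcq* (2.09). Smaller ones included those of *Lcp2* (0.74) and *Vav1* (0.81), used by many leukocytes, and of *Txk* (0.84). The 7 genes not called were *Fyn* (−0.28), *Malt1* (−0.07) and *Bcl10* (−0.13), which many cell types express, and *Tespa1* (0.53), *Csk* (0.22), *Pag1* (−0.02) and *Cblb* (−0.42). *Plcg1*, a phospholipase of many cell types, fell, with means of 3204 ± 554 (SD, n = 4) and 2009 ± 169 (SD, n = 3) and a log2 difference of −0.66 (limma adjusted p = 0.0072). The list holds genes that T cells use with the receptor, several of them also expressed by other cells, and was chosen with results of these data known.

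**Figure D5:**
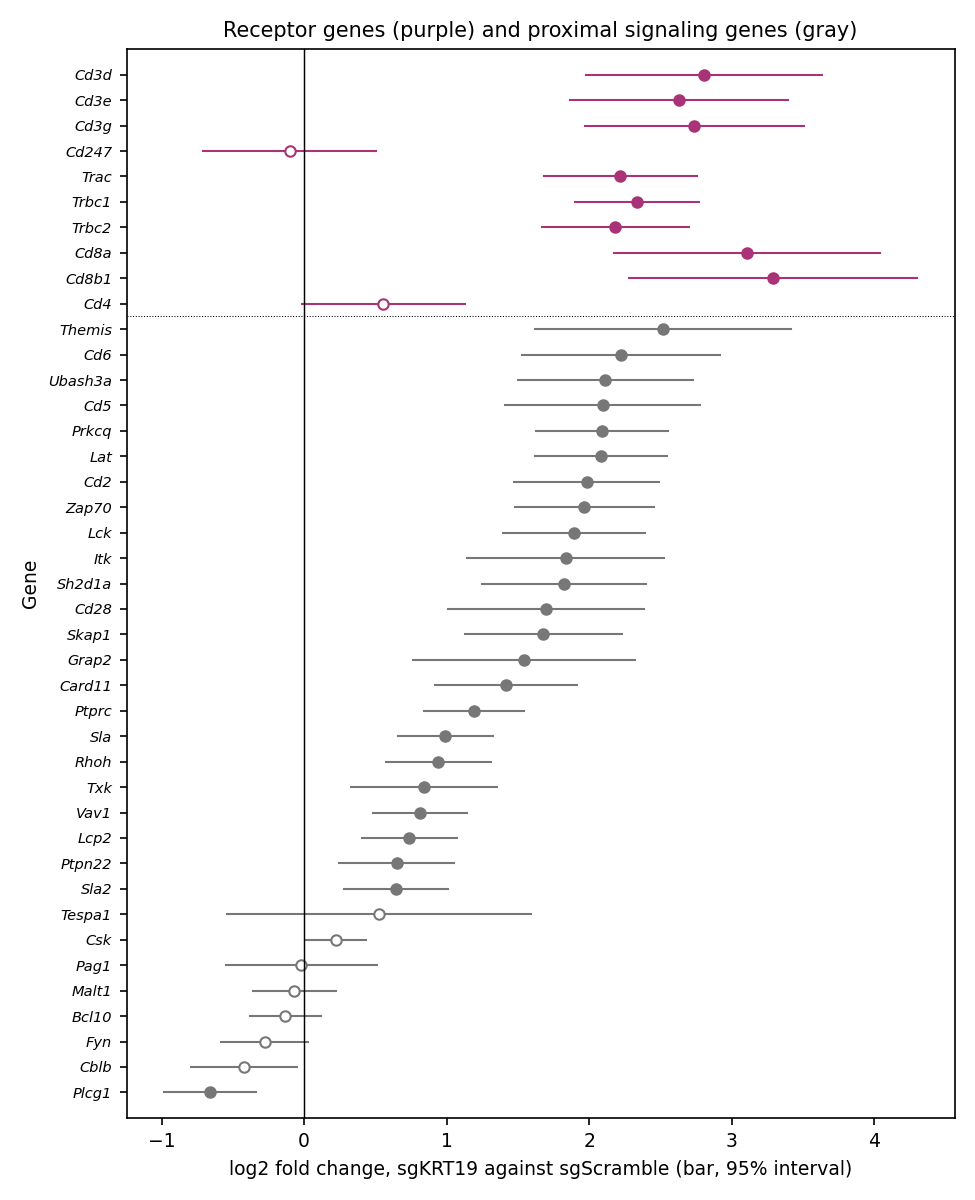
Log2 fold change of sgKRT19 against sgScramble tumors with its 95% interval, for the 10 receptor and co-receptor genes (purple) and the 31 signaling genes tested (gray). Filled points passed an adjusted p of 0.05 by limma. The called receptor genes lie between 2.18 and 3.29, and the signaling genes between −0.66 and 2.52.

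Markers of cells that share these genes were read beside them, and each count below stands against 17.9% higher and 16.0% lower over all genes tested. All 8 pan-leukocyte genes rose, with a median log2 fold change of 1.04 and a range of 0.65 to 1.42, and their summed level was 11326 to 15482 in sgScramble and 20687 to 28150.0 in sgKRT19 tumors. Each of the 8 receptor genes called thus had a larger fold change than any of these 8. Of 8 NK cell genes, which cytotoxic T cells partly share, 6 rose (summed level of the 8 was 352 to 573 against 1407 to 1672). They were *Klrd1* (2.38), *Klrk1* (1.93), *Xcl1* (1.93), *Klra8* (1.69), *Klre1* (1.53) and *Eomes* (0.88), of which *Klra8* needed the sgKRT19 libraries to pass the filter. *Ncr1* and *Klrb1c* were not called (log2 fold change 0.81 and 1.17, limma adjusted p = 0.197 and 0.0525). Of 8 genes of dendritic cells that can carry CD8 alpha, 4 rose and 1 fell (summed level 4398 to 5631 against 4026 to 4272), and most of that sum in sgScramble was *Cadm1*, a gene not limited to these cells, which fell by 1.34 on the log2 scale (limma adjusted p = 0.000467). *Xcr1*, *Clec9a*, *Itgae* and *Tlr3* rose (1.55, 0.88, 1.55 and 1.14), and *Batf3*, *Zbtb46* and *Wdfy4* were not called (0.13, 0.11 and 0.68). Macrophages and monocytes can carry CD4, and of 8 of their genes 3 rose and 1 fell (summed level 15725 to 21989 against 20422 to 25158), with *Ly6c2*, *C1qa* and *C1qb* higher (2.03, 0.52 and 0.57), *Mrc1* lower (−0.50) and *Adgre1*, *Csf1r*, *Cd68* and *Itgam* not called (0.02, 0.05, 0.10 and 0.13). Of the 8 helper and regulatory T cell genes 6 were tested and 4 rose, 1 of which (*Ccr8*) needed the sgKRT19 libraries to pass the filter. They were *Icos* (1.91), *Ccr8* (1.78), *Il2ra* (1.04) and *Tnfrsf4* (0.93). *Foxp3*, the regulatory T cell factor, was at 506 to 541 against 445 to 529 and was not called, nor was *Cxcr5* (0.20). In every sgScramble library *Foxp3* was above *Cd4* (56.3 to 99.2) and *Cd3e* (36.5 to 98.8). The cells its reads came from were not tested, so a change in regulatory T cells cannot be read from *Foxp3* alone. *Cd40lg*, a defining gene of activated helper cells, was at or under 0.988 in sgScramble and at 3 to 9.25 in sgKRT19 tumors, too low to be tested. B cell and lymph node genes were low throughout, with 3 of 10 tested, 1 of them higher (*Ccl21a*, which needed the sgKRT19 libraries to pass the filter), and a summed level of 70.6 to 138 against 103 to 134. Of 8 epithelial genes 4 rose, and the summed level of the 8 was 123150 to 166140 against 251340 to 261570. Most of that sum was *Krt8* and *Krt18* in each library, so it does not measure epithelial content as a whole. *Krt18*, *Krt8*, *Krt20* and *Cdh1* rose (0.97, 0.91, 0.86 and 0.55). *Cldn7*, *Epcam*, *Krt7* and *Cldn4* were not called (0.47, 0.06, −1.03 and −1.23). The part of these cells in the receptor genes was not tested.

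Neighbors of the receptor genes on the chromosomes did not share one pattern. Around the CD3 genes 7 neighbors were tested, of which 5 rose and none fell, against 17.9% higher and 16.0% lower over all genes tested. *Scn4b* went from 13.1 to 81.7 in the group means, and its log2 difference of 2.55 was near that of *Cd3e* (2.63). *Jaml*, a junctional adhesion molecule of leukocytes, rose by 1.49, *Mpzl3* by 0.74, *Atp5l* by 0.70 and *Mpzl2* by 0.64. *Ube4a* and *Kmt2a* were not called (−0.03 and −0.43). Next to *Cd4*, *Lag3*, which encodes an inhibitory relative of CD4 that binds MHC class II, was at 175, 238, 149 and 162 in sgScramble 1 to 4 and at 702, 672 and 491 in sgKRT19 5, 6 and 8 (log2 fold change 1.78, limma adjusted p = 0.000191). Among further neighbors of *Cd4*, *P3h3* fell (−0.89, limma adjusted p = 0.000799), and *Ptms*, *Usp5* and *Gpr162* were not called (0.00, −0.07 and −0.17). Around *Cd8a*, *Smyd1*, a gene of muscle, had 3.48 and *Fabp1* had 1.82 (limma adjusted p = 0.00586 for *Fabp1*), while *Rmnd5a* and *Krcc1* were not called (−0.14 for both).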

How the data were processed

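RNA of 7 s/c tumors was sequenced by an Illumina TruSeq protocol. The labels name polyA RNA, while the study's methods name a stranded total RNA kit. The authors deposited a table of signal values, which are read counts divided by a size factor for each library, on build mm10. The aligner, the counter and its use of strand were not given in the sources used here. In the deposited signal values 100% of entries were whole multiples, within 0.05, of the value of 1 read, so the reads were recovered. No pair of libraries of the same group agreed within sampling noise (chi-square per degree of freedom of 17.2 or more). Gene positions and exon overlaps came from GENCODE M21, in which 97.7% of the 38026 IDs had the same version.

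limma 3.58.1 in R 4.3.3 (eBayes with trend) was run on log2(value + 1) for 21322 genes reaching 10 in 3 or more libraries, with Benjamini-Hochberg adjustment and a threshold of 0.05, after a test on simulated data. The same fit on each log2 value minus that of *Cd3e* tested changes relative to *Cd3e*. Since every gene then carries the spread of *Cd3e*, a fit with each gene's own spread was added after seeing the data. Ratios and segment measures were compared by two-sided exact permutation over the 35 assignments of tumors to groups. Alternatives were edgeR 4.0.16 and DESeq2 1.42.0 on recovered reads, another pseudocount, no filter, scaling by library size, a minimum fold change, and each library left out. Named were the 10 genes, members of fixed lists, the 3 *Trbv* segments with the highest share per group, the 5 genes most like the CD3 mean, and *Krt19*. *Gm48719*, *Trbv13-2* and the *Trbj* clusters were chosen after their values were seen. The genes and lists were chosen with earlier results of these data known.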

Additional observations from a re-analysis of the deposited data

How the results depend on the processing

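No paired analysis was possible because the groups share no replicate number (1 to 4 against 5, 6 and 8). The calls of the 10 genes were the same in 6 other settings and in 7 fits with 1 library left out, with 8 of 10 called in each. Scaling by library size alone shifted the median log2 fold change of all genes to −0.21, and called 2177 genes higher and 5727 lower (main 3820 and 3420). The test for a fold change above 1.5 called 1336 genes (728 higher, 608 lower), and 15 signaling genes, 15 of them higher and 0 lower. The count of signaling genes that fell, 1 in the report, was 2 by DESeq2 and 4 with library size alone. With 1 library left out, the genes called ranged from 4861 to 7714, those called higher from 2481 (without sgKRT19 5) to 4103, those called lower from 2232 (without sgScramble 2) to 3611, and the signaling genes that fell from 1 to 2, which was 2 without sgScramble 1 or sgScramble 3. *Cd8a* relative to *Cd3e* was 0.48 in both fits and was called with each gene's own spread.

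Some small differences changed sign, and none of them was called. *Cd247* ranged from −0.32 to 0.076 with 1 library left out and was 0.53 after subtracting the reads expected from *Pou2f1*. *Cd3d* minus *Cd3e* ranged from −0.083 to 0.33 and *Cd3g* minus *Cd3e* from −0.011 to 0.21, in both the per-tumor ratio and the fit relative to *Cd3e*. The difference in the largest *Trbv* share was −2.34 to 5.10 percentage points, and in the largest *Trav* share −2.14 to 1.27. The thinned number of *Trav* segments differed by −0.69 to 0.38, and of *Trbv* segments by −2.24 to −0.96. Without thinning, these differences were 38.75 and 2.42 segments, since libraries with more reads show more segments. The *Trbv* reads of sgScramble libraries, 27 to 69, limit every statement on segments.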
